A study of Mus musculus with 16 samples.

Results

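The comparison described here is that of livers from female hCYP2B6-Tg mice with livers from female Cyp2b-null mice. The 8 female libraries, 4 of each genotype, were chosen by the sex and genotype in their titles out of 16 libraries in the series. The other 8 are from males of the same genotypes. They entered the same fit, so they bear on the filter and on the estimated spread behind the female tests, and their values are given where a female difference is set against the male one. All 16 came from C57BL/6 mice that ate a diet with 60% of fat for 16 weeks, so diet was shared by both genotypes and has no control in these data. Not given in the sources used here are the ages, the promoter that drives the transgene, and whether hCYP2B6-Tg mice also lack the mouse Cyp2b genes. The stated purpose was to learn how human CYP2B6 acts on liver transcripts in diet-induced obesity.

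CYP2B enzymes are cytochrome P450 oxidases that sit in the membrane of the endoplasmic reticulum (ER) of hepatocytes and oxidise drugs, steroids and polyunsaturated fatty acids. The ER is also where secreted proteins are folded, and a load of unfolded protein there switches on chaperone genes through the transcription factors XBP1, ATF6 and ATF4, a programme called the unfolded protein response. In a fat-loaded liver that response, the genes of fatty acid synthesis and oxidation, and the circadian clock are all known to shift, and many liver genes differ between the sexes.

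The 8 female libraries held 5584587 to 9672708 counts, and Cyp2b-null female 1 was the shallowest. Values are given as CPM, the read count of a gene relative to its library's total after scaling by TMM, a normalisation that assumes most genes do not differ. Per-library values are given in the order Cyp2b-null 1, 3, 4 and 5, then hCYP2B6-Tg 1, 2, 4 and 5, the numbers being those in the titles. In a principal component analysis of these libraries the first component held 21.8% of the variance and the second 17.9%. The genotypes overlapped on the first, where Cyp2b-null female 1 lay at one end (-34.4). On the second every hCYP2B6-Tg library (6.85 to 18.6) was above every Cyp2b-null library (-35.5 to 0.986), with Cyp2b-null female 3 at the low end. All 8 matched the labelled sex by Xist and Ddx3y. Hepatocyte markers such as albumin summed to 147478 to 172730 CPM in Cyp2b-null and 147024 to 166599 CPM in hCYP2B6-Tg libraries over 15 of the 16 listed genes, and none of the 15 was at 0.

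No gene passed the adjusted test between the female genotypes. edgeR's quasi-likelihood test called 0 of 13470 genes (0%) at an adjusted p under 0.05, and the smallest adjusted p was 0.186. At unadjusted p under 0.05 there were 1022 genes (7.59%), of which 531 (3.94%) had higher and 491 (3.65%) lower estimates in hCYP2B6-Tg. DESeq2 on the same counts called 8 genes, which were Foxa3, Marveld1, Rassf3, Rhou, Sgpl1, St5, Stra6l and Syne1. All 4 hCYP2B6-Tg libraries lay above all 4 Cyp2b-null libraries in 234 genes (1.74%) and below them in 237 (1.76%). In males the same edgeR fit called 15 genes (0.111%). The median log2 fold change over all tested genes was 0.00 in females. Members of gene lists are therefore read below against these shares, as descriptions of genes that did not pass the adjusted test singly. The verbs of change are kept for differences that passed it.

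Genes are named here from those with the smallest p where all 4 libraries of one genotype lay above all 4 of the other. Values in each library are given for some of them, not strictly in order of p. The gene with the smallest p of those higher in hCYP2B6-Tg was Marveld1 (chromosome 19, 42147389 to 42151703), which codes for a membrane protein with a MARVEL domain. It was at 17.2, 16.99, 14.9 and 20.7 CPM in the Cyp2b-null livers and at 23.3, 28.4, 26.8 and 35.2 CPM in the hCYP2B6-Tg livers. Every hCYP2B6-Tg library exceeded every Cyp2b-null library, with a log2 fold change of 0.70 ± 0.14 (SE) and an edgeR adjusted p of 0.186. The male estimate was 0.45 ± 0.13, with an adjusted p of 0.302 by edgeR. Slc27a2 (chromosome 2, 126553024 to 126588243), a fatty acid transporter and very long chain acyl-CoA synthetase, was at 1124, 1272, 1043 and 875 CPM in the Cyp2b-null livers and at 1308, 1497, 1609.5 and 1386 CPM in the hCYP2B6-Tg livers. The highest Cyp2b-null value, in female 3, was just under the lowest hCYP2B6-Tg value, in female 1, and the log2 fold change was 0.43 ± 0.10 (adjusted p = 0.448).

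Another 7 genes taken by the same rule with higher estimates had log2 fold changes from 0.33 (Mrps2, a mitochondrial ribosome protein) to 0.71 (Ero1lb, an oxidase that recharges protein disulfide isomerases). Pdia5, a disulfide isomerase of the ER, was at 0.60. Hip1r, which links clathrin coats to actin, was at 0.42, and Baiap2l1, an actin-bundling adaptor, at 0.33. Polr2i, a subunit of RNA polymerase II, stood at 0.46 and Pitpnm2, a phosphatidylinositol transfer protein, at 0.41. Each of the 7 had an adjusted p of 0.448.

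Of the genes lower in hCYP2B6-Tg by the same rule, Fam160a1 (chromosome 3, 85660063 to 85785302) had the smallest p. It was at 6.85, 7.796, 8.63 and 4.58 CPM in the Cyp2b-null livers and at 3.496, 3.14, 2.27 and 2.94 CPM in the hCYP2B6-Tg livers. No libraries overlapped, the log2 fold change was -1.20 ± 0.24 and the edgeR adjusted p was 0.186. Loxl4 (chromosome 19, 42592279 to 42612806), a lysyl oxidase that crosslinks collagen, was at 13.5, 3.74, 6.79 and 5.001 CPM in the Cyp2b-null livers and at 2.15, 1.98, 1.51 and 1.41 CPM in the hCYP2B6-Tg livers. Cyp2b-null female 1 was far above the rest, and the estimate was -1.97 ± 0.39 with an adjusted p of 0.186. St5 (chromosome 7, 109523911 to 109703718), which codes for an exchange factor for Rab GTPases, was at 48.3, 33.1, 45.7 and 31.6 CPM in the Cyp2b-null livers and at 22.2, 26.2, 24.1 and 24.2 CPM in the hCYP2B6-Tg livers, a log2 fold change of -0.71 ± 0.14 with an adjusted p of 0.186. Foxa3 (chromosome 7, 19013283 to 19023539), a forkhead transcription factor that opens liver enhancers, was at 64.6, 53.01, 48.2 and 35.01 CPM in the Cyp2b-null livers and at 21.8, 31.2, 32.4 and 22.9 CPM in the hCYP2B6-Tg livers. The hCYP2B6-Tg libraries were all below the lowest Cyp2b-null library, number 5. Its log2 fold change was -0.88 ± 0.21 (adjusted p = 0.448), beside 0.07 ± 0.21 in males.

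The remaining 8 lower genes of the rule had log2 fold changes from -0.77 to -0.34. Syne1, which codes for the nuclear envelope protein nesprin-1, was at -0.77 and Spata2, an adaptor of TNF receptor signalling, at -0.66. Sgpl1, the lyase that ends sphingosine-1-phosphate signalling, was at -0.43, and Rhou, an atypical small GTPase, at -0.42. F11r, the junctional adhesion molecule A, was at -0.37, Cutal at -0.36, Stra6l, a receptor for retinol-binding protein, at -0.35 and Gstm7, a glutathione transferase, at -0.34. Their adjusted p values ran from 0.323 for Rhou to 0.448.

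**Figure D1:**
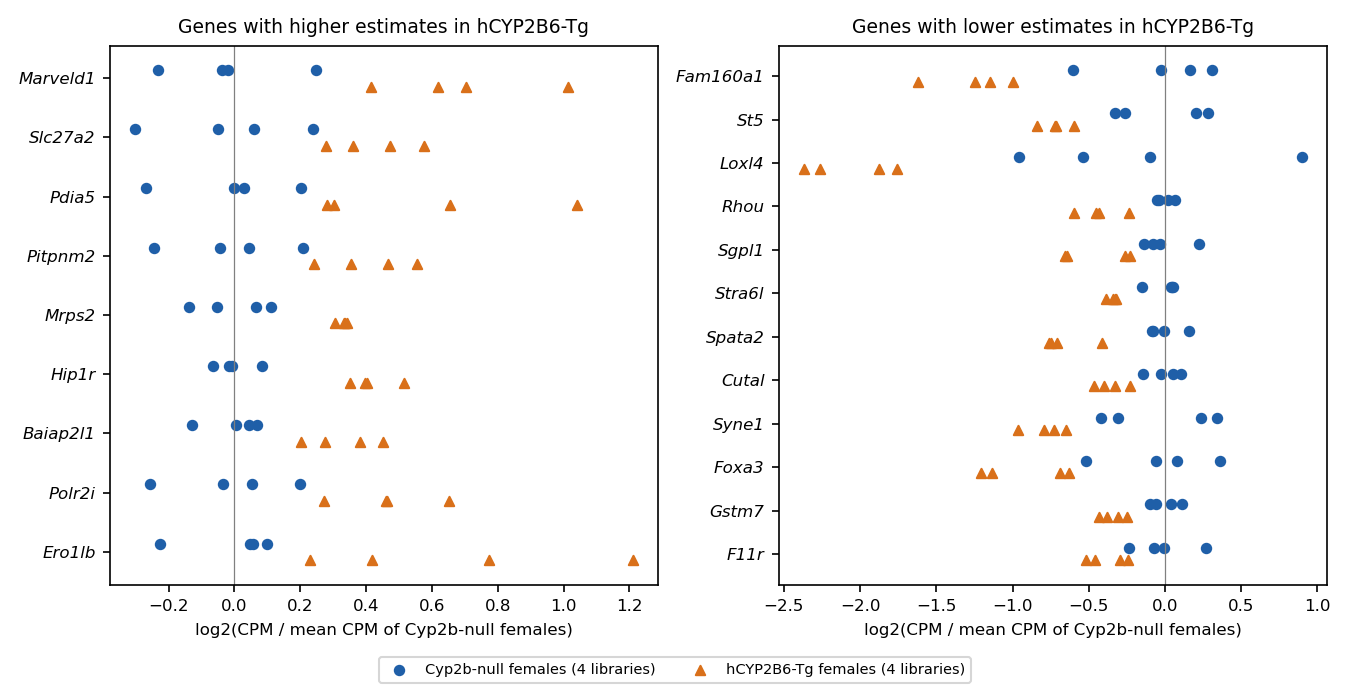
Level of 21 genes taken by this rule in each of the 8 female libraries, as log2 of CPM over the mean CPM of the 4 Cyp2b-null females (x axis), with one gene per line, circles for Cyp2b-null and triangles for hCYP2B6-Tg. The rule required groups that do not overlap, so the separation is given by the choice; Loxl4 shows the widest spread, with Cyp2b-null values from 3.74 to 13.5 CPM.

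The mouse Cyp2b genes lie on chromosome 7 (Cyp2b10 at 25897658 to 25926624, Cyp2b9 at 26173350 to 26210661). They had few counts in both female genotypes, at most 17 in any library, and the few counts were more frequent in hCYP2B6-Tg. Whether those counts came from transcripts of the mouse genes was not tested. Cyp2b10, the classical target of the nuclear receptor CAR, had 0, 1, 0 and 1 counts in the Cyp2b-null females and 6, 9, 7 and 4 counts in the hCYP2B6-Tg females, a ratio of CPM of 12.99 with a 95% counting interval of 3.25 to 113. Cyp2b23 had 0 counts in every Cyp2b-null female and 9, 11, 1 and 7 counts in hCYP2B6-Tg females, at least 9.32-fold higher against a floor of 3 counts over the group. For Cyp2b19 the counts were 0 in every Cyp2b-null female and 5, 6, 1 and 6 in hCYP2B6-Tg, at least 5.99-fold higher against the same floor. Summed over these 3 genes there were 2 counts for the Cyp2b-null females against 72 for the hCYP2B6-Tg females, and 1 against 99 for the males.

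Cyp2b9, which is known as a female-predominant gene of mouse liver, had 5, 4, 5 and 2 counts in the Cyp2b-null females and 10, 17, 6 and 8 counts in the hCYP2B6-Tg females. That is a ratio of 2.56 with an interval of 1.41 to 4.89. Cyp2b13 had 0, 0, 4 and 0 counts beside 0, 1, 0 and 0 counts. For Cyp2b9, Cyp2b10, Cyp2b19 and Cyp2b23 the exact permutation test, two-sided, gave p = 0.0286, the smallest that 4 libraries against 4 can give. With no filter on low counts, edgeR's adjusted p was 0.423 for Cyp2b10 and 0.423, 0.51 and 0.879 for Cyp2b19, Cyp2b23 and Cyp2b9. How reads of the human transcript were assigned in the authors' counting was not tested, and a row for human CYP2B6 was not analysed here. Of the 6 tested genes that lie within or beside this cluster, Cyp2a4, Cyp2a5, Cyp2a12, Cyp2a22, Cyp2f2 and Cyp2g1, 0 had an unadjusted p under 0.05 in females, against 7.59% of all genes, and their log2 fold changes ran from -0.21 (Cyp2g1) to 0.21 (Cyp2a5).

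Of the lists with at least 10 tested members, the one with the largest share of members higher in hCYP2B6-Tg females at unadjusted p under 0.05 was that of the unfolded protein response and ER chaperones. Of its 28 tested members 25 had higher estimates, and 15 of the 28 had an unadjusted p under 0.05 in that direction, against 3.94% of all genes, while 0 did so in the other direction. The median log2 fold change was 0.34, beside 0.00 over all genes. No member passed the adjusted test, the smallest adjusted p by edgeR being 0.448. Promoters of several ER chaperone genes hold a known regulatory sequence, the ER stress response element, to which NF-Y and the stress factor ATF6 bind. It was taken as CCAAT followed after 9 bases by CCACG and searched on both strands of RefSeq promoters (250 bases before to 50 after the start). It was found for 9 of the 24 members with a promoter sequence (37.5%), which were Hspa5, Hsp90b1, Pdia6, Calr, Canx, Dnajc3, Creld2, Derl3 and Syvn1. It occurred in 0.119% of 32851 mouse promoters and in 0.188% of the 9585 tested genes with a sequence. The members were listed by known function, so their share describes the list and does not bear on the genotype. The promoters of 3 matching genes with large female estimates are shown 5′ to 3′ with the element in capitals, on the opposite strand in Derl3 and Creld2.
Derl3 (GRCm38.p6, chr10:75893148-75893447, plus strand): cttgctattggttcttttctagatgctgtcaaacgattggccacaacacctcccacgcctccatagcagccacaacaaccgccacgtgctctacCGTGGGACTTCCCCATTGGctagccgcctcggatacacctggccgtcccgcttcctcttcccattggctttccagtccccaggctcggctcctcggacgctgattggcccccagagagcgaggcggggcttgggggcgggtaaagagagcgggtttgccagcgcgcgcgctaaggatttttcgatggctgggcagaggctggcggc
Syvn1 (GRCm38.p6, chr19:6046326-6046625, plus strand): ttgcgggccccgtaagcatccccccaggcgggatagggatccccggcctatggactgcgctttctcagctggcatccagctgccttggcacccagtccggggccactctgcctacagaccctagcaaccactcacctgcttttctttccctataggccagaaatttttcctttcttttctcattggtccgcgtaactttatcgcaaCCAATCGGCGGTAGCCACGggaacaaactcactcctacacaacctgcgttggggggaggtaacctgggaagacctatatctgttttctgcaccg
Creld2 (GRCm38.p6, chr15:88819396-88819695, plus strand): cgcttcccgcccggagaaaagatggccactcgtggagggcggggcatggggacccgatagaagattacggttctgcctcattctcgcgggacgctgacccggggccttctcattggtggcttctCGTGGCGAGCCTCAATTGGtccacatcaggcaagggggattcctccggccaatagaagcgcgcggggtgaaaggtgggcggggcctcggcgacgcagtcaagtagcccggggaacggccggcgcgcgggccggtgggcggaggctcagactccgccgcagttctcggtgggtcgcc

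Derl3 (chromosome 10, 75893398 to 75895941), part of the channel that removes misfolded proteins from the ER, was at 0.878, 1.09, 0.2303 and 0.625 CPM in the Cyp2b-null livers and at 1.08, 6.29, 4.39 and 19.96 CPM in the hCYP2B6-Tg livers. In hCYP2B6-Tg, females 2, 4 and 5 were above every Cyp2b-null library, female 1 was not, and female 5 was the highest. Its log2 fold change was 3.57 ± 0.86 with an unadjusted p of 0.00113 and an edgeR adjusted p of 0.448. Syvn1 (chromosome 19, 6046576 to 6053718), the ubiquitin ligase HRD1 of the same removal pathway, was at 43.9, 41.2, 64.01 and 90.1 CPM in the Cyp2b-null livers and at 90.4, 155, 90.8 and 245 CPM in the hCYP2B6-Tg livers. The groups did not overlap, though Cyp2b-null female 5 and hCYP2B6-Tg females 1 and 4 were close together, and the log2 fold change was 1.27 ± 0.43 (adjusted p = 0.566). Creld2 (chromosome 15, 88819646 to 88826681), a secreted ER stress protein, was at 20.9, 21.05, 24.9 and 55.1 CPM in the Cyp2b-null livers and at 47.9, 83.3, 41.03 and 142 CPM in the hCYP2B6-Tg livers. Cyp2b-null female 5 was above hCYP2B6-Tg females 1 and 4, and the log2 fold change was 1.34 ± 0.56 (adjusted p = 0.625).

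Xbp1 (chromosome 11, 5520641 to 5525993), the transcription factor that drives much of this programme, was at 168, 157, 150.2 and 195 CPM in the Cyp2b-null livers and at 197, 209.5, 206 and 249.9 CPM in the hCYP2B6-Tg livers. The groups did not overlap, by a small margin, and the log2 fold change was 0.37 ± 0.15 with an adjusted p of 0.604. Hspa5 (chromosome 2, 34772090 to 34776529), the chaperone BiP that senses unfolded protein, was at 817, 628, 817 and 1267 CPM in the Cyp2b-null livers and at 1126, 1525, 1040.0 and 2067 CPM in the hCYP2B6-Tg livers. Its groups overlapped, since Cyp2b-null female 5 was above hCYP2B6-Tg females 1 and 4, and its unadjusted p was 0.0652. Chaperones and folding enzymes with an unadjusted p under 0.05 were Hyou1 (1.05), Sdf2l1 (1.15), Manf (0.90), Ero1lb, Pdia4 (0.54), Dnajb11 (0.47), Dnajc3 (0.32), Pdia6 (0.32), Pdia3 (0.30) and Hsp90b1 (0.30), given as log2 fold changes, with Herpud1, a degradation factor, at 0.44. Members of the ATF4 branch had unadjusted p above that level. Ddit3, the transcription factor CHOP, was at 0.22 ± 0.18, Atf4 itself at -0.11 ± 0.12, Trib3 at 0.29 ± 0.34 and Ppp1r15a, which restores translation after stress, at -0.21 ± 0.19.

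**Figure D2:**
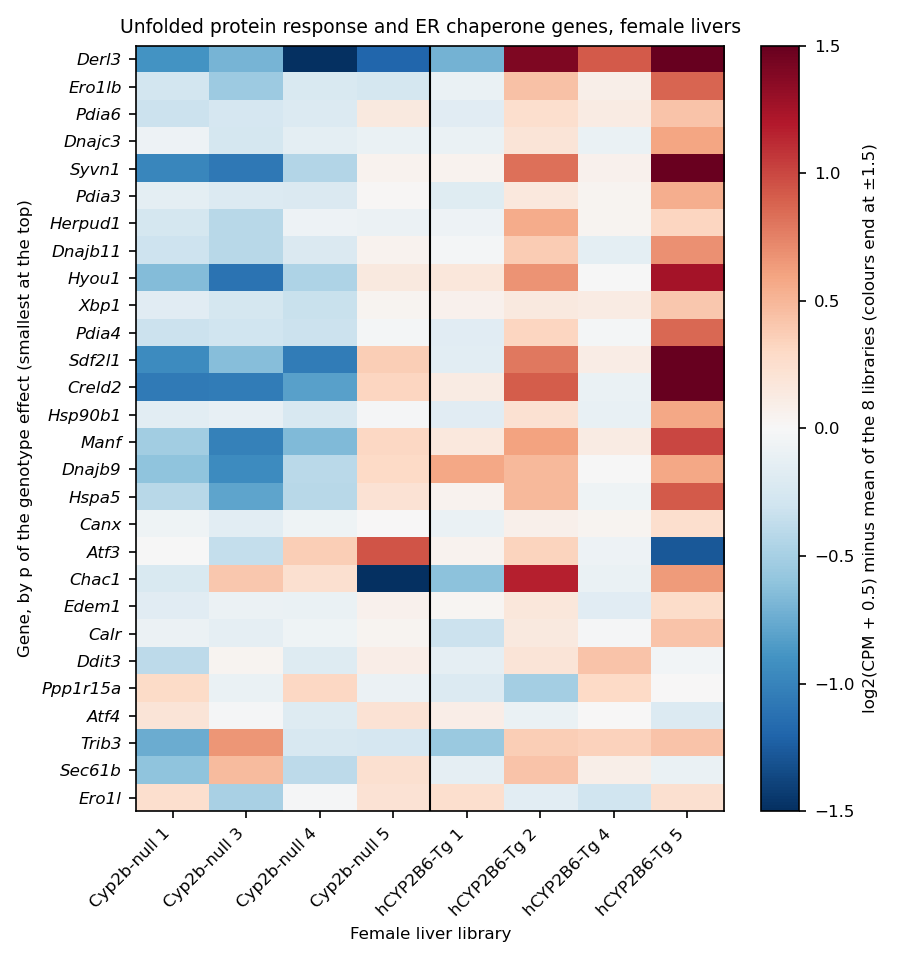
Colour map of 28 unfolded protein response and ER chaperone genes (y axis, in order of the p of the genotype effect) in the 8 female libraries (x axis), as log2(CPM + 0.5) minus the mean of the 8 libraries. hCYP2B6-Tg 5 and 2 are reddest and Cyp2b-null 1, 3 and 4 bluest in the upper part, while Cyp2b-null 5 resembles hCYP2B6-Tg 1 and 4 for genes such as Hspa5.

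The level of the whole list was uneven within each genotype. The mean deviation from the average of the 8 libraries, in log2 units over the 28 genes, was -0.35, -0.35, -0.31 and 0.00 in Cyp2b-null and -0.08, 0.40, 0.07 and 0.62 in hCYP2B6-Tg females. hCYP2B6-Tg female 1 was below Cyp2b-null female 5, so the groups overlapped. Leaving out single libraries changed the count of 15 members to 8 without Cyp2b-null female 1, 6 without Cyp2b-null female 3, 9 without Cyp2b-null female 4 and 4 without hCYP2B6-Tg female 5. Without both Cyp2b-null females 1 and 3 the count was 2, a setting that also leaves 2 Cyp2b-null females.

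In males the same list had a median log2 fold change of 0.00, and 0 of the 28 members had an unadjusted p under 0.05 in either direction, against 7.17% of all genes. The difference between the sexes had an unadjusted p under 0.05 for 6 of the 28, all with a larger estimate in females, against 7.7% of all genes in either direction and 4% in that one. The smallest adjusted p of that difference was 0.457. Syvn1, for example, had a male log2 fold change of -0.33 ± 0.43 and a difference of 1.60 ± 0.61. Hspa5 ranged widely among males too, at 653, 904, 1613 and 660.0 CPM in Cyp2b-null males and 879.9, 1042, 623 and 1299.6 CPM in hCYP2B6-Tg males. Cyp2b-null male 3 was the highest of the 8.

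Heat shock genes code for chaperones and their partners, most of them cytosolic, with Hspd1 and Hspe1 those of the mitochondrion. All 20 tested members had higher estimates in hCYP2B6-Tg females, 8 of them with an unadjusted p under 0.05 (background 3.94%), and the median log2 fold change was 0.30, beside 0.05 in males, where 0 of 20 had an unadjusted p under 0.05. The difference between the sexes had an unadjusted p under 0.05 for 1 of the 20, with the larger estimate in females, against 4% of all genes in that direction. Hspb1 (chromosome 5, 135887919 to 135889563), a small heat shock protein that holds unfolded proteins in solution, was at 4.92, 7.17, 4.72 and 4.58 CPM in the Cyp2b-null livers and at 7.396, 11.6, 9.99 and 27.8 CPM in the hCYP2B6-Tg livers. The groups did not overlap, and the log2 fold change was 1.43 ± 0.39 with an adjusted p of 0.448. Hsph1 (chromosome 5, 149616843 to 149636498), which resets the HSP70 chaperone, was at 55.5, 39.1, 67.7 and 93.1 CPM in the Cyp2b-null livers and at 87.4, 137, 81.8 and 169 CPM in the hCYP2B6-Tg livers. Cyp2b-null females 1 and 3 were the lowest and hCYP2B6-Tg females 2 and 5 the highest, with a log2 fold change of 0.89 ± 0.34 (adjusted p = 0.59).

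Hsf1, the transcription factor of the heat shock response, had a log2 fold change of 0.44 ± 0.16 without overlap of the groups, and a difference from the male estimate of 0.65 ± 0.23 (adjusted p = 0.462). Chordc1, a cochaperone of HSP90, was at 0.48 ± 0.16, and Hspa8, the constitutive HSP70, at 0.43 ± 0.20. The list's mean deviation was -0.30, -0.31, -0.18 and 0.07 in Cyp2b-null and 0.02, 0.29, -0.05 and 0.46 in hCYP2B6-Tg females, with hCYP2B6-Tg females 1 and 4 below Cyp2b-null female 5. The count of 8 members became 4 without Cyp2b-null female 1, 5 without Cyp2b-null female 3, 5 without hCYP2B6-Tg female 2 and 3 without hCYP2B6-Tg female 5. It was 2 without both Cyp2b-null females 1 and 3. The core heat shock element, to which HSF1 binds and which was searched on both strands as GAA, TTC and GAA with 2 bases between them, was in the promoter of 4 of 15 members with a sequence (26.7%), in 0.603% of all promoters and in 0.668% of tested genes. The share of members with the element describes the list and does not bear on the genotype. Hsph1 is shown as the matching gene with the values above, with the element in capitals.
Hsph1 (GRCm38.p6, chr5:149636287-149636586, minus strand): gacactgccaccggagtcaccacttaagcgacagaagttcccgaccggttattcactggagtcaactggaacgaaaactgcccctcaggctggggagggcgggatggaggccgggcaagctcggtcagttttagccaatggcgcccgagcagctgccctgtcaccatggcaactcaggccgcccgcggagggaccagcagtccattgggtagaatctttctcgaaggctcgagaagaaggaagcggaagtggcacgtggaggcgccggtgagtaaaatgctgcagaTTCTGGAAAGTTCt

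The list of de novo lipogenesis, the making of fatty acids from acetyl-CoA, had mostly lower estimates. It also held genes of fatty acid elongation and desaturation and of lipid droplets. Of 18 tested genes 15 had lower estimates in hCYP2B6-Tg females, with a median log2 fold change of -0.21, and 2 had an unadjusted p under 0.05 (background 3.65%). Elovl5 (chromosome 9, 77917365 to 77984519), an elongase of polyunsaturated fatty acids, was at 1229.8, 1077, 1105 and 1240.2 CPM in the Cyp2b-null livers and at 1006, 872, 797 and 707 CPM in the hCYP2B6-Tg livers. The groups did not overlap, and the log2 fold change was -0.46 ± 0.12 with an adjusted p of 0.448. Pnpla3 (chromosome 15, 84167776 to 84189521), a lipid droplet protein tied to fatty liver, was at 7.38, 16.5, 8.405 and 23.3 CPM in the Cyp2b-null livers and at 11.03, 5.94, 0.606 and 3.07 CPM in the hCYP2B6-Tg livers. The groups overlapped with a several-fold spread within each genotype, and the log2 fold change was -1.43 ± 0.55 (adjusted p = 0.59). Scd1 (chromosome 19, 44394450 to 44407709), which makes monounsaturated fatty acids, was at 7452, 8616, 7908 and 12133 CPM in the Cyp2b-null livers and at 8336, 6269.8, 1420.3 and 4269 CPM in the hCYP2B6-Tg livers. hCYP2B6-Tg female 4 was the lowest and hCYP2B6-Tg female 1 was within the Cyp2b-null range, and the log2 fold change of -0.83 ± 0.41 had an unadjusted p of 0.064.

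Males had estimates of the opposite sign for most of these genes. There 17 of the 18 had higher estimates in hCYP2B6-Tg, 9 of them with an unadjusted p under 0.05 (3.43% of all genes), and the median was 0.61. The difference of the genotype effect between the sexes had an unadjusted p under 0.05 for 11 of the 18, all lower in females, against 3.7% of all genes. None of the 11 passed the adjusted test, the smallest adjusted p being 0.264. Elovl5 had a male log2 fold change of 0.29 ± 0.12 and a difference of -0.75 ± 0.17 (unadjusted p = 0.000267). Fasn, the fatty acid synthase, had -0.11 ± 0.45 in females and 0.97 ± 0.45 in males, and Acly, which makes cytosolic acetyl-CoA, -0.41 ± 0.33 and 0.87 ± 0.33. For Me1, which supplies NADPH, the values were -0.23 ± 0.21 and 0.72 ± 0.21. Within the female livers the list's mean deviation was -0.33, 0.28, 0.12 and 0.61 in Cyp2b-null and 0.31, -0.02, -0.75 and -0.22 in hCYP2B6-Tg, and Cyp2b-null female 1 was lower than 3 of the 4 hCYP2B6-Tg libraries. hCYP2B6-Tg female 1 was higher than 3 of the 4 Cyp2b-null libraries. The female count of 2 ranged from 1 to 6 when single libraries were left out, the 6 without hCYP2B6-Tg female 1.

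**Figure D3:**
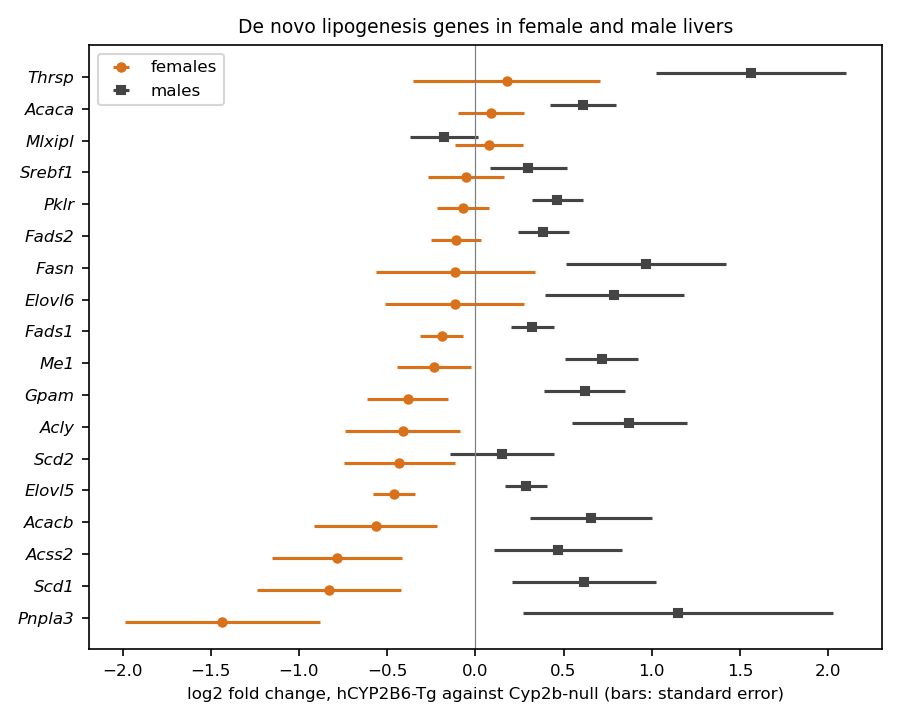
Log2 fold change of hCYP2B6-Tg against Cyp2b-null for 18 lipogenesis genes (y axis) in females (circles) and males (squares), with bars for the standard error, from the fit of all 16 libraries. The male value lies to the right of the female one for every gene except Mlxipl, and the medians are -0.21 in females and 0.61 in males.

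Genes of cholesterol synthesis and uptake had a female median of -0.05 beside 0.25 in males, and 5 of 25 differed between the sexes at unadjusted p under 0.05, all lower in females, against 7.7% of all genes in either direction and 3.7% in that one. Pmvk, the phosphomevalonate kinase, was at -0.53 ± 0.22 in females and 0.35 ± 0.22 in males, and Sc5d, a late enzyme of the pathway, at -0.33 ± 0.15 and 0.31 ± 0.15. Fatty acid oxidation genes, mostly targets of the receptor PPAR alpha, had higher estimates in 23 of 26 tested members in females, with small values (median 0.09). Only 1 of the 26 had an unadjusted p under 0.05 (background 7.59%). It was Acaa1a (chromosome 9, 119341028 to 119350296), the peroxisomal thiolase, at 128, 159, 135 and 128 CPM in the Cyp2b-null livers and at 170.0, 183, 194 and 155 CPM in the hCYP2B6-Tg livers, a log2 fold change of 0.35 ± 0.09 (adjusted p = 0.448). The groups overlapped by 1 library in each genotype, and the male estimate was -0.07 ± 0.09. Dgat1, which makes triglyceride, was at -0.33 ± 0.14 with no overlap of the groups. It was the single lipid droplet gene of 22 with an unadjusted p under 0.05 (background 7.59%).

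Among 32 tested P450 genes outside the Cyp2b cluster 22 had higher estimates, 4 of them with an unadjusted p under 0.05 (background 3.94%). Cyp4a31 (chromosome 4, 115563627 to 115579015), a fatty acid omega-hydroxylase gene, was at 8.96, 8.73, 9.44 and 9.69 CPM in the Cyp2b-null livers and at 20.3, 14.6, 13.02 and 11.1 CPM in the hCYP2B6-Tg livers. The groups did not overlap and the log2 fold change was 0.67 ± 0.24 (adjusted p = 0.551). Cyp4a10 was at 0.72 ± 0.30, and because these close copies share sequence their single values are uncertain. Cyp2c44 (chromosome 19, 44005022 to 44029256), an epoxygenase of arachidonic acid, was at 153, 262, 175 and 205 CPM in the Cyp2b-null livers and at 271, 199, 324 and 310.3 CPM in the hCYP2B6-Tg livers, a log2 fold change of 0.47 ± 0.16, beside -0.21 ± 0.16 in males, and the female groups overlapped. Cyp2c69 was at 0.68 ± 0.28 and Cyp2j9 at -0.91 ± 0.30. Of 31 CAR and PXR target genes 3 had lower and 1 had higher estimates at that level (background 3.65% and 3.94%). Gstm3 (chromosome 3, 107963696 to 107969174), a glutathione transferase, was at 20.9, 24.8, 21.6 and 26.4 CPM in the Cyp2b-null livers and at 19.4, 12.7, 17.3 and 7.17 CPM in the hCYP2B6-Tg livers. It did not overlap and had a log2 fold change of -0.74 ± 0.21 (adjusted p = 0.448), while Gstm1 was at -0.23 ± 0.09 and Gstm2 at -0.45 ± 0.18. Por (chromosome 5, 135670040 to 135735326), the reductase that feeds electrons to every microsomal P450, was at 230.0, 405, 295 and 216 CPM in the Cyp2b-null livers and at 329.6, 401, 379 and 481 CPM in the hCYP2B6-Tg livers. The groups overlapped, and the log2 fold change was 0.47 ± 0.19 (adjusted p = 0.616).

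Bile acid synthesis genes had 2 of 22 members with higher estimates at unadjusted p under 0.05 (background 3.94%). Cyp7a1 (chromosome 4, 6265612 to 6275632), the rate-limiting enzyme of bile acid synthesis, was at 70.8, 191, 122 and 131 CPM in the Cyp2b-null livers and at 262, 227, 165 and 199 CPM in the hCYP2B6-Tg livers. The groups overlapped, with a log2 fold change of 0.73 ± 0.31 (adjusted p = 0.625). In males the estimate had the other sign, -0.91 ± 0.31, and the difference between the sexes was 1.63 ± 0.44 with an adjusted p of 0.36. Amacr, a racemase of bile acid precursors, was at 0.23 ± 0.11.

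Of 22 tested circadian clock genes 17 had higher estimates in hCYP2B6-Tg females, 5 of them with an unadjusted p under 0.05 (background 3.94%), and 1 had a lower estimate at that level. The median was 0.30 in females and 0.38 in males, so both sexes had the same sign here. In males 11 of the 22 had a higher estimate with an unadjusted p under 0.05 (background 3.43%), more than in females. Bhlhe41 (chromosome 6, 145858243 to 145865420), a repressor of the clock also called DEC2, was at 0, 0.7796, 0.576 and 0.625 CPM in the Cyp2b-null livers and at 1.21, 1.86, 2.88 and 2.303 CPM in the hCYP2B6-Tg livers. The groups did not overlap, and the log2 fold change was 1.92 ± 0.49 with an adjusted p of 0.448. Per2 (chromosome 1, 91415977 to 91459351), a negative arm of the clock, was at 11.4, 18.9, 21.4 and 28.2 CPM in the Cyp2b-null livers and at 37.9, 42.2, 23.6 and 38.01 CPM in the hCYP2B6-Tg livers, with a log2 fold change of 0.80 ± 0.27. Arntl (chromosome 7, 113178471 to 113314126), the activator BMAL1, was at 17.6, 3.898, 8.75 and 8.34 CPM in the Cyp2b-null livers and at 3.36, 5.82, 5.602 and 4.86 CPM in the hCYP2B6-Tg livers, with a log2 fold change of -0.93 ± 0.33 in females and -0.94 ± 0.45 in males. Both genes overlapped between the groups, and Cyp2b-null female 1 had the most Arntl and the least Per2 of the 8 libraries.

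Ciart, a repressor of the clock, had 0.87 ± 0.39 in females and 1.70 ± 0.34 in males, where it passed the adjusted test (adjusted p = 0.0437). The mean deviation of the list was -0.65, 0.08, -0.11 and -0.14 in Cyp2b-null and 0.06, 0.28, 0.08 and 0.40 in hCYP2B6-Tg females. Cyp2b-null female 1 stood apart at the low end. The count of 5 was 12 without Cyp2b-null female 3, 3 without Cyp2b-null female 5, 3 without hCYP2B6-Tg female 2 and 2 without hCYP2B6-Tg female 5. Times of collection are not given in the labels, and their part in these values was not tested. The E-box CACGTG, which reads the same on both strands, can overlap the CCACG of the ER element and binds the clock activators, was in 6 of 18 members' promoters (33.3%), in 7.15% of all promoters and in 11.9% of tested genes. The share of members with an E-box describes the list and does not bear on the genotype. The promoter of Bhlhe41 is shown with the E-box in capitals.
Bhlhe41 (GRCm38.p6, chr6:145865371-145865670, minus strand): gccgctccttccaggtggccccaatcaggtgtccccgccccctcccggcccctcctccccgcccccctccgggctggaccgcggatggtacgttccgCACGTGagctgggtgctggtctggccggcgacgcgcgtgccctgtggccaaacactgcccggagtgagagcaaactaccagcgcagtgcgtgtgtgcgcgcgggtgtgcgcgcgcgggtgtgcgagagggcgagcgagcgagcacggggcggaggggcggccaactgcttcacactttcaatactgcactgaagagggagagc

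**Figure D4:**
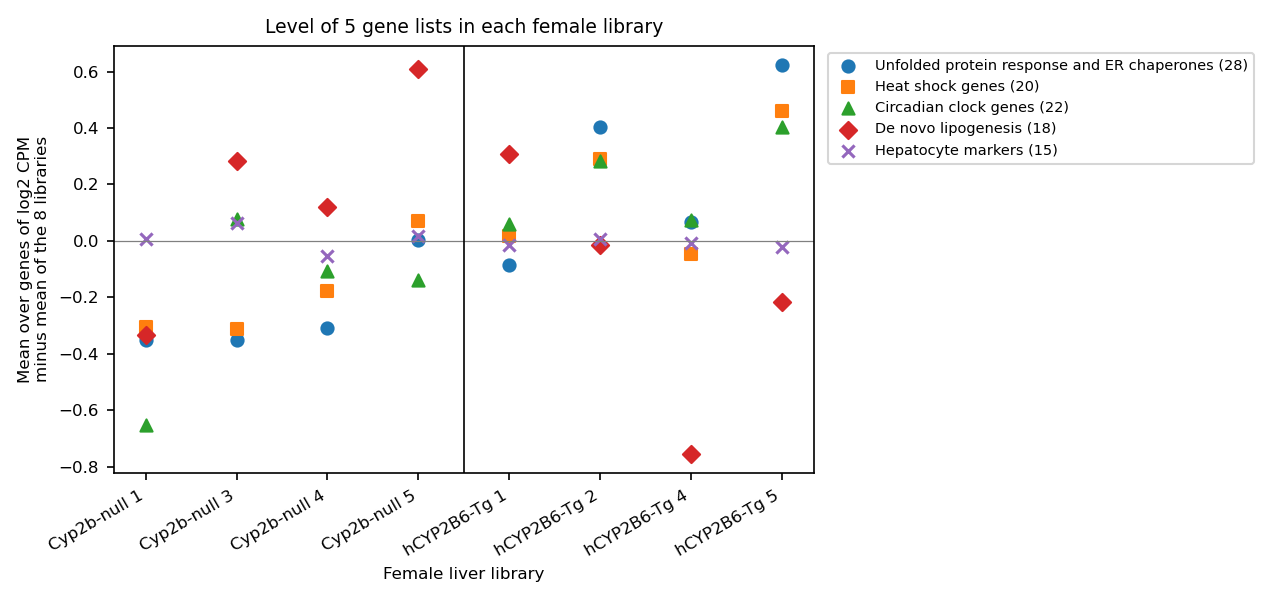
Mean over genes of log2 CPM minus the mean of the 8 libraries (y axis) for 5 gene lists in each female library (x axis), with one symbol per list. Hepatocyte markers stay near 0 in all 8, whereas the unfolded protein response list runs from -0.35 in Cyp2b-null 3 to 0.62 in hCYP2B6-Tg 5 and clock genes are at -0.65 in Cyp2b-null 1.

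In glucose metabolism 3 of 31 genes had an unadjusted p under 0.05 (background 7.59%). Slc37a4 (chromosome 9, 44396946 to 44402966), the glucose-6-phosphate transporter, was at 101, 125, 111 and 138 CPM in the Cyp2b-null livers and at 142, 168, 125 and 181 CPM in the hCYP2B6-Tg livers, with overlap and log2 fold changes of 0.38 ± 0.11 in females and 0.41 ± 0.11 in males. Irs2, an insulin receptor substrate, was at 0.97 ± 0.42, and Ppp1r3c, which targets a phosphatase to glycogen, at -0.49 ± 0.22. Of periportal genes 15 of 21 had lower estimates, 3 of them at unadjusted p under 0.05 (background 3.65%), including the urea cycle enzymes Arg1 (-0.24 ± 0.10) and Ass1 (-0.50 ± 0.21). Their male estimates were 0.23 ± 0.10 and 0.13 ± 0.21. Cebpb (chromosome 2, 167688915 to 167690432), a transcription factor of acute and fasting responses, was at 56.5, 65.95, 63.1 and 48.1 CPM in the Cyp2b-null livers and at 68.99, 87.00, 71.5 and 91.8 CPM in the hCYP2B6-Tg livers. It did not overlap in females, and its log2 fold changes were 0.45 ± 0.13 in females and 0.34 ± 0.13 in males.

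Genes known to differ between male and female liver were examined next. The female-biased list had a median of 0.01 over 31 genes, with 4 higher and 2 lower at unadjusted p under 0.05 (background 3.94% and 3.65%). A1bg, a female-specific plasma protein gene, was at 1.16 ± 0.38 and Cux2, a female-specific transcription factor, at -0.95 ± 0.35. Neither passed the adjusted test, and the groups overlapped for both. A1bg was at 0.61 without hCYP2B6-Tg female 4 and at 1.79 without Cyp2b-null female 1, and Cux2 at -0.52 without Cyp2b-null female 3. The male-biased list had a median of 0.18 in females and -0.31 in males, with 0 of 25 at unadjusted p under 0.05 in females (background 7.59%).

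The genotype effect differed between the sexes in 6 genes at an adjusted p under 0.05 by edgeR (0.0445% of 13470). Pim1 (chromosome 17, 29490785 to 29496111), a serine/threonine kinase, was at 8.78, 14.2, 11.1 and 6.98 CPM in the Cyp2b-null livers and at 14.1, 16.9, 12.7 and 15.7 CPM in the hCYP2B6-Tg livers. In males it was at 22.8, 29.3, 22.2 and 25.2 CPM in Cyp2b-null males and 15.7, 10.5, 13.6 and 14.8 CPM in hCYP2B6-Tg males. The groups overlapped in females and not in males. The log2 fold change was 0.56 ± 0.18 in females and -0.86 ± 0.17 in males, a difference of 1.42 ± 0.24 with an adjusted p of 0.042. The cell cycle repressor E2f8 (chromosome 7, 48866429 to 48882073) was at 19.1, 9.67, 9.67 and 6.98 CPM in the Cyp2b-null livers and at 14.3, 21.9, 22.4 and 22.01 CPM in the hCYP2B6-Tg livers, with 0.87 ± 0.23 in females and -1.04 ± 0.24 in males, a difference of 1.92 ± 0.33 (adjusted p = 0.0445). The female groups overlapped for E2f8, since Cyp2b-null female 1 was above hCYP2B6-Tg female 1. The other 3 Cyp2b-null livers were below every hCYP2B6-Tg liver. Ablim3, an actin-binding protein gene, differed by 1.07 ± 0.20.

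The other three genes had lower estimates in females than in males. Ccdc141 (chromosome 2, 77009902 to 77173769) was at 14.9, 19.02, 20.5 and 13.5 CPM in the Cyp2b-null livers and at 12.4, 10.9, 12.6 and 12.4 CPM in the hCYP2B6-Tg livers, without overlap, and its log2 fold changes were -0.49 ± 0.16 and 0.88 ± 0.18. Wipf3 (chromosome 6, 54429218 to 54503768), an actin regulator, was at 10.01, 17.8, 12.4 and 12.5 CPM in the Cyp2b-null livers and at 9.55, 8.62, 8.48 and 7.29 CPM in the hCYP2B6-Tg livers, also without overlap, with -0.63 ± 0.17 and 0.71 ± 0.17. Rasgef1b had -0.23 ± 0.16 and 1.08 ± 0.18. The number of genes with a called difference was 0 when Cyp2b-null female 4 or hCYP2B6-Tg female 2, 4 or 5 was left out, 8 without Cyp2b-null female 1 and 12 without hCYP2B6-Tg female 1.

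None of the 15 genes called in males passed in females, where 0 of all 13470 tested genes did. Egfr (chromosome 11, 16752203 to 16913907), the epidermal growth factor receptor, was at 46.2, 89.3, 75.4 and 64.9 CPM in the Cyp2b-null livers and at 58.2, 101, 93.3 and 125 CPM in the hCYP2B6-Tg livers. In males it was at 358, 417, 433 and 413 CPM in Cyp2b-null males and 168, 182, 143 and 142 CPM in hCYP2B6-Tg males. The female groups overlapped, with a log2 fold change of 0.45 ± 0.21. In males Egfr fell by 1.35 on the log2 scale without overlap (adjusted p = 0.0299), and the difference between the sexes had an adjusted p of 0.0539. That difference depended on the test. It passed with DESeq2 (adjusted p = 1.87e-07), limma voom (adjusted p = 0.0123) and edgeR without robust estimation (adjusted p = 0.0103). It did not pass when only the scaling or the filter of the edgeR fit was altered. Rhobtb1, an atypical small GTPase, had 0.21 ± 0.11 and 0.74 ± 0.11, and Fnip2, a folliculin partner, 0.09 ± 0.15 and 0.93 ± 0.15. For Dusp6, a phosphatase of ERK kinases, the values were -0.17 ± 0.14 and -0.83 ± 0.14, and for Nampt, which makes NAD precursors, 0.18 ± 0.08 and 0.40 ± 0.08. The difference between the sexes passed the adjusted test for 3 of the 15, which were Ccdc141, Pim1 and Rasgef1b.

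**Figure D5:**
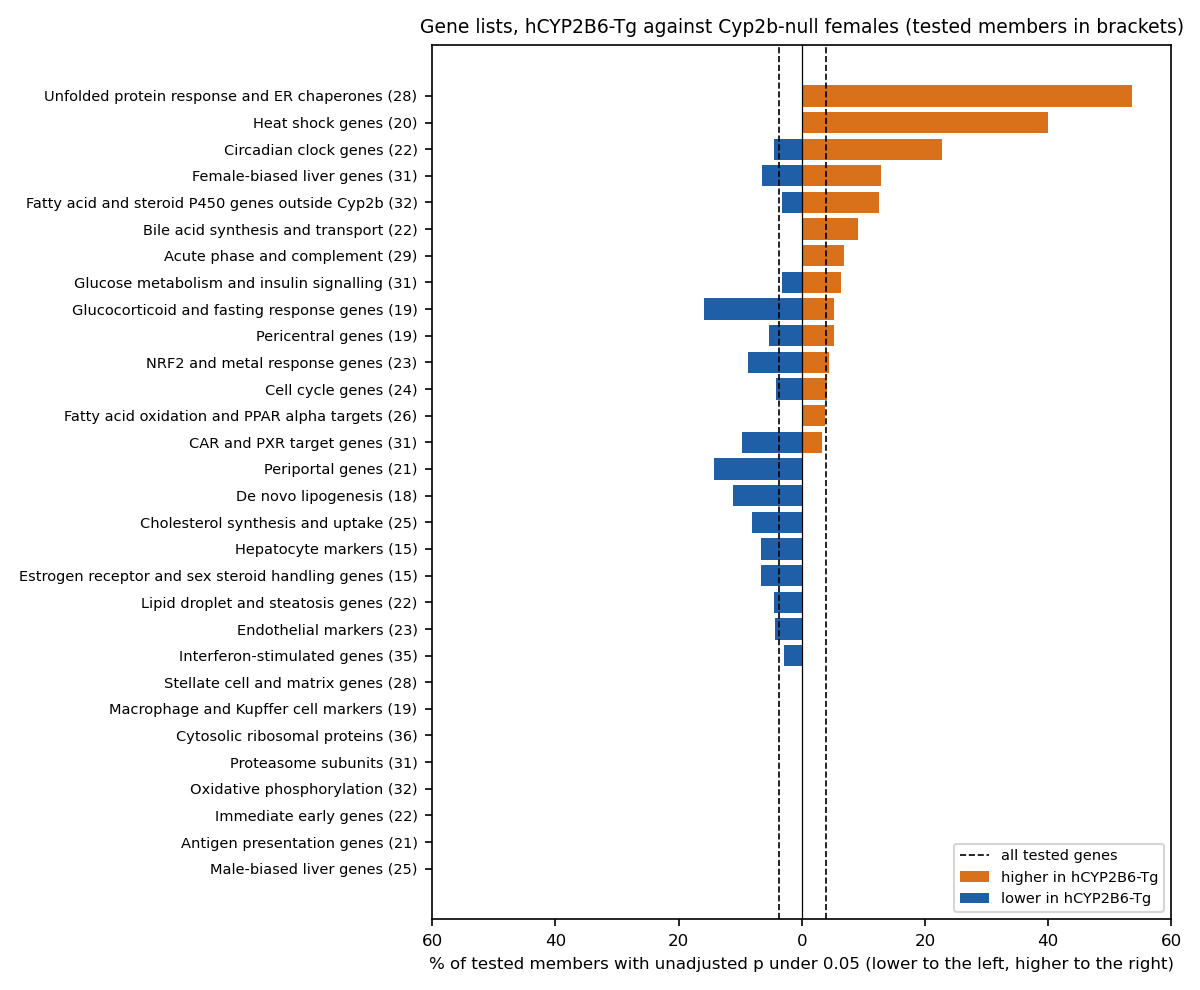
Share of the tested members of each gene list (y axis, number tested in brackets) with an unadjusted p under 0.05 in females, as a percentage (x axis), to the right for higher and to the left for lower estimates in hCYP2B6-Tg. Dashed lines give the share of all 13470 tested genes, 3.94% higher and 3.65% lower; the unfolded protein response list (15 of 28) and the heat shock list (8 of 20) extend farthest to the right.

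Markers of cells other than hepatocytes were examined because bulk liver RNA mixes them, and fewer cells of a type cannot be told apart from less RNA per cell. Macrophage and Kupffer cell markers had lower estimates in 16 of 19 tested genes (median -0.11), and stellate cell and matrix genes in 23 of 28 (median -0.11). Both lists had 0 members at unadjusted p under 0.05 (background 7.59%). Estimates were also lower for 6 of 6 cholangiocyte markers (median -0.25), 16 of 23 endothelial markers (median -0.12, with Wnt2 alone at unadjusted p under 0.05) and 6 of 8 lymphocyte markers (median -0.98). The lymphocyte median ran from -1.23 to -0.09 when single libraries were left out. Over all tested genes 6682 of 13470 were lower. Summed macrophage markers over 25 listed genes were 796 to 1226 CPM in Cyp2b-null and 808 to 1066 CPM in hCYP2B6-Tg libraries, and Trem2 was at 0 in all 8. Summed lymphocyte markers were 38.8 to 129.7 CPM and 35.8 to 56.6 CPM over 24 genes, with Trac and Ltb at 0 in all 8. The high value was that of Cyp2b-null female 3, which had 53.9 CPM of the immunoglobulin gene Igkc where the other 7 had 4.66 to 12.3 CPM. Cholangiocyte markers summed to 60.4 to 82.7 CPM and 50.1 to 70.1 CPM, and endothelial markers to 545 to 819 CPM and 554 to 761 CPM. Of 15 pancreas markers 11 were at 0 in all 8 libraries. The part of these cells in the results above was not tested.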

How the data were processed

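Per the labels, the RNA came from mouse liver, and the authors deposited raw counts, whole numbers of reads for each gene symbol in each library with no normalisation. GSNAP, Subread, FastQC, Trimmomatic, edgeR and the build GRCm38.p6 are named, without versions or order, per the submitters' processing notes. Not given in the sources used here are the strand setting and the treatment of reads with several matches, so close copies such as Cyp4a10 and Cyp4a31 are uncertain as single genes. Coordinates and promoters are from RefSeq on GRCm38.p6, which matched 12754 of the 13470 tested genes.

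All 16 libraries (4 groups) entered one edgeR quasi-likelihood fit with TMM scaling, filterByExpr and robust estimation, two-sided, with Benjamini-Hochberg adjustment over 13470 genes and a threshold of 0.05. The script was tested on simulated data. The software was edgeR 4.0.16 under R 4.3.3, with DESeq2 1.42.0 and limma 3.58.1 as alternatives. Titles gave genotype, sex and number; the labels do not state that libraries are separate animals, so p-values measure the spread between libraries, which may be technical. Counting intervals and the floor of 3 counts cover counting error only. Female pairs differed by more than counting noise (chi-square per degree of freedom at least 6.99).

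Named were up to 12 genes in each direction with the smallest p, at least 5 CPM and no overlap, up to 4 of each of 36 lists (846 genes) with the smallest p, the Cyp2b region, 8 genes for the difference between the sexes and the genes called in males. Of the genes with higher estimates, 3 are not reported here. Further list members, Rassf3 and leading library values were named after their values were seen. The libraries, the members and the lists were chosen with earlier results of these data known. Alternatives covered scaling, filter, test, a replicate block and omitted libraries.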

Additional observations from a re-analysis of the deposited data

Results flagged for a closer look

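In some groups of 4 libraries a single library lay far from the others by Dixon's test, which chance alone gives in about 1 of 20 groups. The test was run in both genotypes for the genes of the text, some gene lists and the Cyp2b genes. Across so many groups, most of the cases below could therefore arise by chance alone. In Cyp2b-null female 1 this was Lgr5 at 8.43 CPM (others 11.4 to 11.98 CPM). In Cyp2b-null female 3 these were Ero1lb at 38.4 CPM (others 46.4 to 48.01 CPM), Hspb1 at 7.17 CPM (others 4.58 to 4.92 CPM), Igkc at 53.9 CPM (others 6.85 to 10.6 CPM) and Stra6l at 198 CPM (others 225 to 228 CPM). In Cyp2b-null female 5 these were Creld2 at 55.1 CPM (others 20.9 to 24.9 CPM) and Pdia4 at 271 CPM (others 220.4 to 225 CPM). In hCYP2B6-Tg female 1 these were E2f8 at 14.3 CPM (others 21.9 to 22.4 CPM) and Trib3 at 3.900 CPM (others 7.72 to 8.19 CPM). In hCYP2B6-Tg female 2 this was Ccdc141 at 10.9 CPM (others 12.4 to 12.6 CPM). In hCYP2B6-Tg female 4 these were Ass1 at 147 CPM (others 193 to 199.5 CPM), Chordc1 at 50.9 CPM (others 62.1 to 63.9 CPM) and Spata2 at 7.42 CPM (others 5.82 to 6.05 CPM). In hCYP2B6-Tg female 5 this was Ciart at 5.503 CPM (others 2.27 to 2.68 CPM). The mean of the unfolded protein response list was apart in Cyp2b-null female 5, at 0.00263 in log2 units, where the other three Cyp2b-null females were at -0.35 to -0.31. Cyp2b13 had 4 counts in Cyp2b-null female 4 and 1 count in hCYP2B6-Tg female 2, with 0 in the other libraries of each group. A group with counts in only a single library is always flagged, however few the counts.

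A genotype effect that differed between the sexes, by the test of the difference itself, was found for 6 genes, given as the female minus the male log2 fold change. The values were 1.92 for E2f8, 1.42 for Pim1 and 1.07 for Ablim3. They were -1.38 for Ccdc141, -1.35 for Wipf3 and -1.30 for Rasgef1b.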

How the results depend on the processing

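Precision was limited by 4 libraries per group, with a median SE of 0.166 on the log2 scale, and by counts for low genes such as Bhlhe41 and Derl3. The count of female calls, 0 in the report, was 8 with DESeq2, 2 with no filter and 0 to 1 when single libraries were left out (E2f8 without Cyp2b-null female 1, Rassf3 without hCYP2B6-Tg female 1). The 6 called differences between the sexes became 0 with library totals only, 16 with DESeq2, 3 with limma voom and 0 to 12 when single libraries were left out.

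The deviations of same-numbered libraries had r = 0.07, -0.05 and -0.06, within the range of differently numbered ones (-0.13 to 0.15). So few pairs cannot show whether the numbers pair the libraries. In the replicate block, libraries without a same-numbered partner in their sex have no weight on the genotype effect. Among females these were Cyp2b-null female 3 and hCYP2B6-Tg female 2, so fewer libraries were compared. With the replicate block there were 5 female calls, 10 called differences between the sexes and 11 clock genes at unadjusted p under 0.05. Of the 6 differences in the report only 1, Pim1, was among those 10, and the female calls included Loxl4 and Cyp2c44. DESeq2 called all 6 among its 16 and voom 2 among its 3.

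Members at unadjusted p under 0.05 numbered 4 to 17 (unfolded protein response), 3 to 11 (heat shock), 2 to 12 (clock) and 1 to 6 (lipogenesis, lower) when single libraries were left out. Without Cyp2b-null females 1 and 3 the counts of the lists other than lipogenesis were 2, 2 and 8. Clock counts were 3 with no filter, 8 with DESeq2, 9 with voom, 10 with voom weights and 8 without robust estimation. Lipogenesis counts were 4 with DESeq2, 5 with voom with or without weights, 4 without robust estimation and 1 from the 8 female libraries alone. Without both number 5 females, an alternative chosen after seeing the data, there were 0 called differences, 1 lipogenesis and 3 clock genes. The older quasi-dispersion estimate was added after seeing the data as well. The causes were not tested.

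The log2 fold changes of some genes near 0 changed sign when single libraries were left out, with ranges of -0.0156 to 0.0565 (Cyp2a12), -0.37 to 0.10 (Cyp2g1), -0.48 to 0.27 (Fasn), -0.0393 to 0.22 (Fnip2) and -0.0404 to 0.26 (Mlxipl). With the replicate block values of opposite sign were -0.00939 for Cyp2a12, -0.0181 for Cyp2f2, 0.27 for Cyp2g1 and 0.0958 for Igkc. Without Cyp2b-null females 1 and 3 the value of opposite sign was 0.0204 for Cyp2a22. Without both number 5 females values of opposite sign were 0.0391 for Dusp6, 0.32 for Fasn, -0.12 for Fnip2 and -0.0895 for Mlxipl.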

Other observations

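Several gene groups outside the comparisons above had few or no members with an unadjusted p under 0.05 in females. Acute phase and complement genes, which the liver secretes into plasma, had higher estimates in 21 of 29 members (median 0.10), and 2 of the 29 had an unadjusted p under 0.05, against 3.94% of all genes. Those were C3, the central complement protein, at 0.26 ± 0.12 (log2 fold change ± SE) and Serpina3n, a protease inhibitor, at 0.23 ± 0.11. C3 had -0.25 ± 0.12 in males, with an unadjusted p of 0.00605 for the difference between the sexes. Interferon-stimulated genes had a median of 0.03 over 35 members, 1 of which, Rsad2, an antiviral enzyme, had a lower estimate at that level (-0.45 ± 0.20, background 3.65%).

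Housekeeping complexes had medians near 0. Of 32 oxidative phosphorylation genes 22 had lower estimates, with a median of -0.04, and of 36 cytosolic ribosomal protein genes 23 had higher estimates, with a median of 0.07. The proteasome list of 31 genes had a median of 0.02. None of the members of these 3 lists had an unadjusted p under 0.05 by edgeR, where 7.59% of all genes did. The antigen presentation list also had 0 of 21 members at that level, as did the immediate early list with 0 of 22. Cell cycle genes had 1 of 24 members in each direction (background 3.94% higher and 3.65% lower). They were Ccnd1, which drives entry into the cycle, at 0.51 ± 0.18, and Cdkn1a, which halts it, at -1.09 ± 0.44. In the pericentral list Lgr5, a receptor of Wnt signalling, was at 0.58 ± 0.20 and Axin2, a target of the same pathway, at -0.48 ± 0.20.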
